A study of Mus musculus with 16 samples.

Results

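Acetylation of histone H3 at lysine 27 (H3K27ac) was lower in common dendritic cell progenitors (CDP) than in multipotent progenitors (MPP) at 7090 autosomal regions, and 1092 of these regions carried more of the mark again in a mature dendritic cell type. These 1092 regions, lost at CDP and regained in mature cells, are described here. They were chosen from the listed signals themselves. A region counted as lost when the ratio of MPP to CDP was at least 2 and its MPP mean was at least 100. It was then followed into the list of classical dendritic cells (cDC) and that of plasmacytoid dendritic cells (pDC). It counted as regained when the region of such a list with most overlapping bp was at least 2-fold above CDP. That overlap could be a small part of the lost region. Each ratio was taken between the means of 2 libraries with 1 added to each mean. The 1092 regions made up 15.4% of the lost regions, which in turn were 7090 of 59626 autosomal regions in the list of MPP and CDP, or 11.9%. "Regained" here means higher than in CDP, and not that the level of MPP was reached.

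Sorted cells of 4 types, of C57BL/6 mouse origin, were profiled by chromatin immunoprecipitation and sequencing with an antibody to H3K27ac. MPP, CDP, cDC and pDC each had 2 libraries, and the labels name no transgene, deletion or treatment in any group. The sources used here state neither the sex of the mice nor whether the libraries came from separate animals or cultures, so the spread between the 2 libraries of a cell type may be technical. For each of 4 pairs (CDP with MPP, cDC with CDP, pDC with CDP, cDC with pDC) the authors deposited a list of regions that differed, in which every region has a signal per library.

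H3K27ac marks active enhancers and promoters. It is laid down by the acetyltransferases CBP and p300 and removed by histone deacetylases, so its level at a place can fall and rise again as cells differentiate. MPP still have several blood lineages open to them, CDP are committed to dendritic cells, cDC take up and present antigen to T cells, and pDC are known for their large output of type I interferon after viral nucleic acid is sensed. The regions are given by position on mouse build mm9. An annotation or sequence of that build was not used here, so no gene is named and the cell type labels were not checked against marker genes.

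The listed signals, called signal units below, are whole numbers already scaled by library, with another scaling in every list. Comparisons of level were kept within a list for this reason, and read depth is unknown. MPP shared no list with cDC or pDC, so a mature cell type was set against MPP through CDP, by joining the ratio of each step. At the 1092 regions the median log2 difference of the second-listed from the first-listed library was 0.18 in CDP and -0.32 in MPP. It was 0.37 in cDC and 0.28 in pDC at the regions regained there.

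Fewer of the lost regions were regained in cDC than in pDC. In cDC 415 regions were at least 2-fold higher than in CDP, which is 5.85% of the 7090 lost regions, and in pDC 882 were, which is 12.4%. Together these fell into 3 classes, with 210 regions regained in cDC only, 677 in pDC only and 205 in both. The lists as a whole differed in the same direction, since 11.9% of the 75217 autosomal regions of the CDP and cDC list were at least 2-fold higher in cDC, while 26.6% of the 68385 autosomal regions of the CDP and pDC list were at least 2-fold higher in pDC. The difference between the counts for cDC and pDC was not tested.

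Most lost regions stayed low or had no later region over them. In cDC, 1576 of the 7090 were at least 2-fold lower still than in CDP, and 3814 had no region of the later list over them, which does not show equal signal. In pDC the corresponding numbers were 1110 and 4236. Across whole lists 22.8% of autosomal regions were at least 2-fold lower in cDC than in CDP and 22.0% were at least 2-fold lower in pDC. Among the lost regions that a later region did cover, 12.7% of 3276 were regained in cDC and 30.9% of 2854 in pDC. Because CDP was chosen to be low in the first step and is the same pair of libraries in the second, these shares are a description and carry no test.

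**Figure D1:**
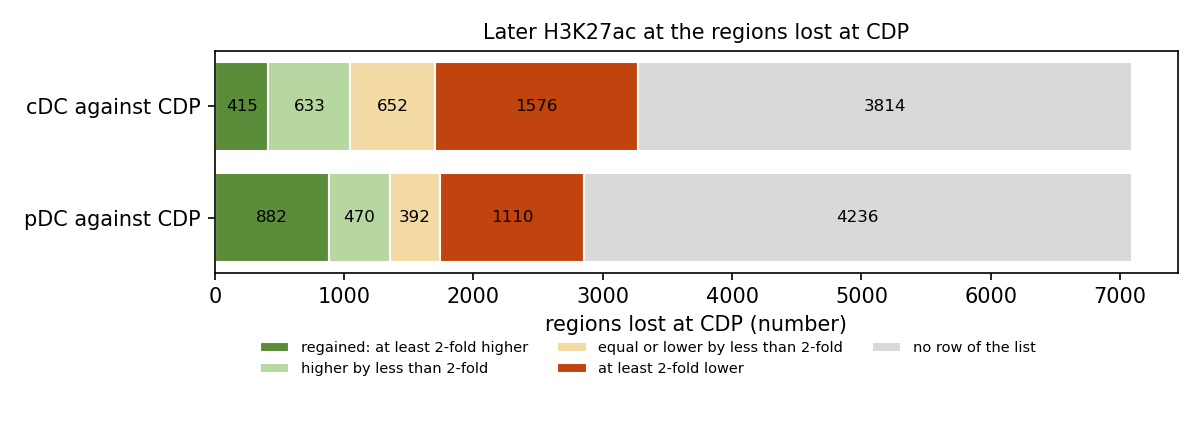
Number of regions lost at CDP (horizontal axis) by what the CDP and cDC list (upper bar) or the CDP and pDC list (lower bar) showed at the region with most overlapping bp. The regained segment holds 415 regions in cDC and 882 in pDC, and the grey segment, 3814 and 4236 regions, had no region of the list over them.

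The counts rested on the CDP libraries and on the scaling. Without the second-listed CDP library 793 regions were regained in cDC, 1421 in pDC and 401 in both. Taking one CDP library for the step against MPP and the other for the step against the mature cells, so that no library was shared, gave 410 and 393 regions regained in cDC and 992 and 800 in pDC, and kept 81.2% and 76.1% of the 1092 regions. When every library was given the same autosomal total within its list (equal totals), the number regained in cDC was 373, beside 12.9% of the whole list at least 2-fold higher in cDC, and the number regained in pDC was 568, beside 22.7% of the whole list. That scaling moved the median log2 ratio of all regions by 0.14 for CDP over MPP, by 0.08 for cDC over CDP, and by -0.30 for pDC over CDP.

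The loss at CDP was moderate at most of the 1092 regions. Signals were a median of 2.83-fold lower in CDP than in MPP, with a range of 2.00 to 23.8-fold, against a median of 3.03-fold at the 5998 lost regions that were not regained. Of those 5998, only 2527 had a later region over them and so could have been regained. Against their median of 2.48-fold the loss at the 1092 regions was the deeper. The same CDP libraries enter the loss and the rise, so the choice of regions bears on this order, which was not tested. The 2527 regions were also longer, with a median of 1150 bp against 700 bp. In the middle of the distribution the CDP libraries had medians of 96.5 and 116 signal units, against 358 and 282 in the MPP libraries. Both CDP libraries lay below both MPP libraries in 1056 of the 1092 regions, or 96.7%, where 97.3% of all lost regions had this separation. Regions just inside and outside the choice differed little. The region chr10:85408651-85409200 was the last counted as lost, with 107 and 96 signal units in CDP against 252 and 156 in MPP, whereas chr12:27153751-27155000, which had CDP signals of 405 and 638 against 1224 and 861 in MPP, fell short of the ratio at 1.997. The lowest MPP mean counted was 100, at chr8:3587751-3588050, and the highest left out for its level was 99.5, at chr2:30446701-30446950.

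The rise in pDC spanned a wider range than that in cDC. Regained regions were a median of 2.75-fold higher in cDC than in CDP, with a highest ratio of 30.8, and a median of 3.66-fold higher in pDC than in CDP, with a highest ratio of 41.8. Both cDC libraries lay above both CDP libraries in 387 of 415 regions, or 93.3%, where 92.0% of all regions at least 2-fold higher in cDC did so. Both pDC libraries lay above both CDP libraries in 862 of 882 regions, or 97.7%, where 98.9% did so over the list. At the threshold, chr2:119566051-119566500 was regained in cDC with 100 and 140 signal units in cDC against 50 and 69 in CDP, and chr3:85407751-85408200 was not, with 194 and 321 in cDC against 104 and 153 in CDP. In pDC, chr7:86807301-86807750 was regained with 37 and 65 signal units in pDC against 22 and 28 in CDP. At chr2:153270751-153271150 signals in pDC were 558 and 774 against 336 and 330 in CDP, a ratio of 1.997, so it was not regained there.

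**Figure D2:**
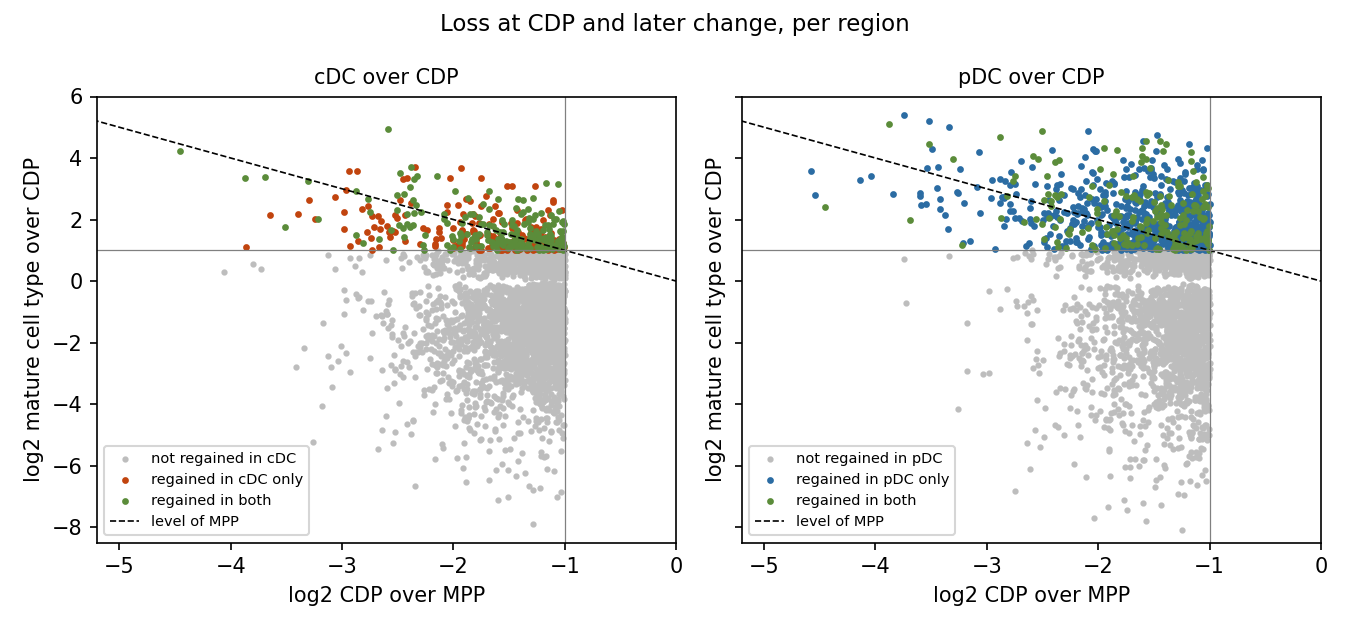
Each point is a region lost at CDP that a later list covered, with the log2 ratio of CDP to MPP on the horizontal axis and the log2 ratio of cDC (left) or pDC (right) to CDP on the vertical axis; coloured points above the horizontal line were regained, and on the dashed line the joined ratios give the level of MPP. Both axes rest on the same 2 CDP libraries, and the grey points, not regained, reach further below the line than the 415 and 882 regained points reach above it.

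Set against MPP through CDP, the regained signal was within 2-fold of MPP at most regions, and in pDC it had the longer upper tail. The joined log2 ratio of cDC to MPP had a median of -0.05 with quartiles of -0.39 and 0.32, and that of pDC to MPP had a median of 0.29 with quartiles of -0.15 and 0.96. With one library left out or with equal totals the median was -0.11 to 0.04 for cDC, on either side of the level of MPP, and 0.18 to 0.37 for pDC. In cDC 361 of 415 regions were within 2-fold of MPP, 29 were at least 2-fold above it and 25 at least 2-fold below it. In pDC 645 of 882 were within 2-fold of MPP, 209 were at least 2-fold above it and 28 at least 2-fold below it. Since each region had to fall and rise by at least 2-fold, the choice of regions limits how far below MPP a value can be.

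**Figure D3:**
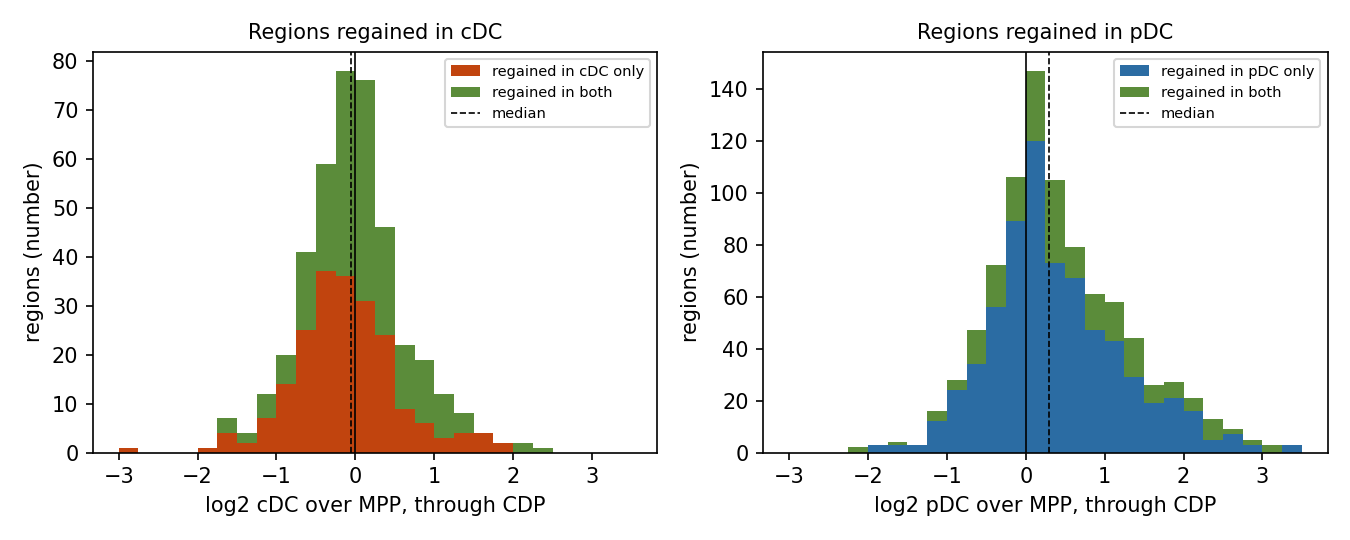
Histograms of the log2 ratio of cDC to MPP (left, 415 regions) and of pDC to MPP (right, 882 regions), joined through CDP, with the number of regions on the vertical axis, the class by colour, the level of MPP as a solid line and the median as a dashed line. The medians are -0.05 in cDC and 0.29 in pDC, and the pDC distribution has the longer upper tail, with 209 regions at least 2-fold above MPP.

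Single regions are named below where the libraries did not overlap in any step and the later region covered at least 50% of the lost one, which held for 157 of the 210 regions regained in cDC only, 550 of the 677 in pDC only and 153 of the 205 in both. The return of a region is the smallest of its fall and its rise. A further 2, 5 and 2 regions of these classes had a larger return than the last one named, and 2, 3 and 1 were longer than the shortest named for its length, each with a later region over less than 50% of it in a list where it was regained. Among the 157 regions of cDC only, the 6 largest returns were at short regions with low CDP signal. At chr12:76954551-76954850 the CDP libraries had 22 and 2 signal units, against 110 and 91 in MPP. In the later list the cDC libraries had 167 and 267 signal units there, against 51 and 3 in CDP. The fall was 7.81-fold and the rise 7.79-fold, and the groups did not overlap in either step, although the CDP libraries differed from each other. Without the first-listed CDP library the log2 ratios were -5.08 for CDP over MPP and 5.77 for cDC over CDP, against -2.96 and 2.96 with both. The region chr5:76076101-76076550 had 2 and 32 signal units in CDP against 203 and 149 in MPP, and then 248 and 247 in cDC against 11 and 67 in CDP. It was 9.83-fold lower in CDP and 6.21-fold higher in cDC, with close cDC libraries and unequal CDP libraries. More even values were seen at chr10:90672401-90672850, where the CDP libraries had 19 and 35 signal units against 141 and 164 in MPP, or 5.48-fold lower. There signals in cDC were 544 and 805 against 52 and 80 in CDP, a 10.1-fold rise with all libraries of cDC far above those of CDP.

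A further 3 regions complete this set. On chromosome 15, chr15:75717801-75718500 had 41 and 52 signal units in CDP against 214 and 315 in MPP, and 533 and 351 in cDC against 72 and 67 in CDP. At chr4:86303401-86303900 CDP had 9 and 70 against 355 and 195 in MPP, and signals in cDC were 88 and 195 against 0 and 50 in CDP. Neither region showed any overlap between groups. The region chr16:49937901-49938250 was barely separated in the later step, with 137 and 1665 signal units in cDC against 128 and 22 in CDP, so its 11.9-fold rise was carried by the second-listed cDC library. Without that library the log2 ratio of cDC to CDP was 0.86, against 3.57 with both.

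The 3 longest of these 157 regions had higher levels and smaller ratios than the 6 just named. Over 3.80 kb, chr10:21711251-21715050 had 1555 and 2516 signal units in CDP against 6413 and 4935 in MPP, or 2.79-fold lower. In cDC it had 6054 and 5714 signal units against 2024 and 3209 in CDP, a 2.25-fold rise in which every cDC value exceeded every CDP value. The pDC list went the other way over the 44.7% of this region that it covered, with 625 and 754 signal units in pDC against 1447 and 2404 in CDP, which is 2.79-fold lower in pDC. At chr1:170359601-170362450 the signal was 2.70-fold lower in CDP than in MPP and 3.69-fold higher in cDC than in CDP, with 5227 and 6036 in cDC against 1378 and 1672 in CDP. The third, chr4:87677501-87680500, was 2.39-fold lower in CDP and 3.01-fold higher in cDC. It was also 1.70-fold higher in pDC than in CDP, short of the 2-fold limit, with 1826 and 1833 signal units in pDC against 929 and 1226 in CDP.

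Among the 550 regions of pDC only, several of the 6 with the largest return rose well past the level of MPP. At chr16:4414051-4414800 the CDP libraries had 33 and 18 signal units against 355 and 251 in MPP, or 11.5-fold lower. Signals in pDC were 918 and 1154 against 34 and 20 in CDP, a 37.0-fold rise, and the joined log2 ratio of pDC to MPP was 1.69. No library of one group came near those of the other. At chr1:82683201-82683600 CDP had 27 and 1 signal units against 178 and 123 in MPP, or 10.1-fold lower. There pDC had 919 and 931 signal units against 32 and 24 in CDP, a 31.9-fold rise, and the joined log2 ratio was 1.66, close to that of the chromosome 16 region. The region chr15:12506701-12507050 had 0 and 18 signal units in CDP against 153 and 70 in MPP, and 343 and 587 in pDC against 1 and 44 in CDP, so the size of its 11.2-fold loss and 19.8-fold rise depended on a CDP library near 0. Without the second-listed CDP library its log2 ratios were -6.81 for CDP over MPP and 7.86 for pDC over CDP, against -3.49 and 4.31 with both.

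Others in this set returned closer to the level of MPP. At chr6:121160701-121161800 CDP had 85 and 18 signal units against 677 and 540 in MPP, and pDC had 372 and 486 against 63 and 3 in CDP. Its 11.6-fold loss and 12.6-fold rise left a joined log2 ratio of pDC to MPP of 0.12. The region chr6:48625851-48626300 was 9.44-fold lower in CDP, with 17 and 15 against 136 and 183 in MPP, and 12.6-fold higher in pDC, with 550 and 696 against 30 and 67 in CDP. At chr15:8575651-8576050 the 8.53-fold loss and the 8.42-fold rise were nearly equal, with 20 and 14 signal units in CDP against 153 and 152 in MPP and 120 and 139 in pDC against 15 and 14 in CDP. In neither of the last-named regions did libraries of different cell types overlap.

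The 3 longest of the 550 regions of pDC only, of 4.45 to 4.60 kb, were 2.46 to 3.04-fold lower in CDP than in MPP and 3.36 to 5.0-fold higher in pDC than in CDP. Of these, chr11:22742151-22746750 had 1192 and 1548 signal units in CDP against 4066 and 3479 in MPP. In pDC it had 9563 and 9922 signal units against 1836 and 2095 in CDP, a 4.95-fold rise over a pDC region of 7550 bp. The cDC list covered 38.0% of it, where cDC had 191 and 518 signal units against 867 and 1066 in CDP and was thus 2.72-fold lower than CDP. At chr19:6398051-6402550 signals in pDC were 11596 and 11004 against 1924 and 2595 in CDP, a 5.0-fold rise, while cDC was 1.32-fold higher than CDP over the part covered. The remaining one, chr16:30966651-30971100, was 3.36-fold higher in pDC and 1.33-fold lower in cDC than in CDP. The cDC list covered only 25.8% of it, and the libraries overlapped there, with 336 and 808 in cDC against 664 and 861 in CDP. Longer still, at 5.95 kb, was chr8:97500601-97506550, with 236 and 383 signal units in CDP against 5176 and 3707 in MPP, or 14.3-fold lower. Its pDC region, with 807 and 824 signal units in pDC against 84 and 146 in CDP, covered only 21.8% of it, so that the loss and the 7.04-fold rise were measured over different stretches of DNA.

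**Figure D4:**
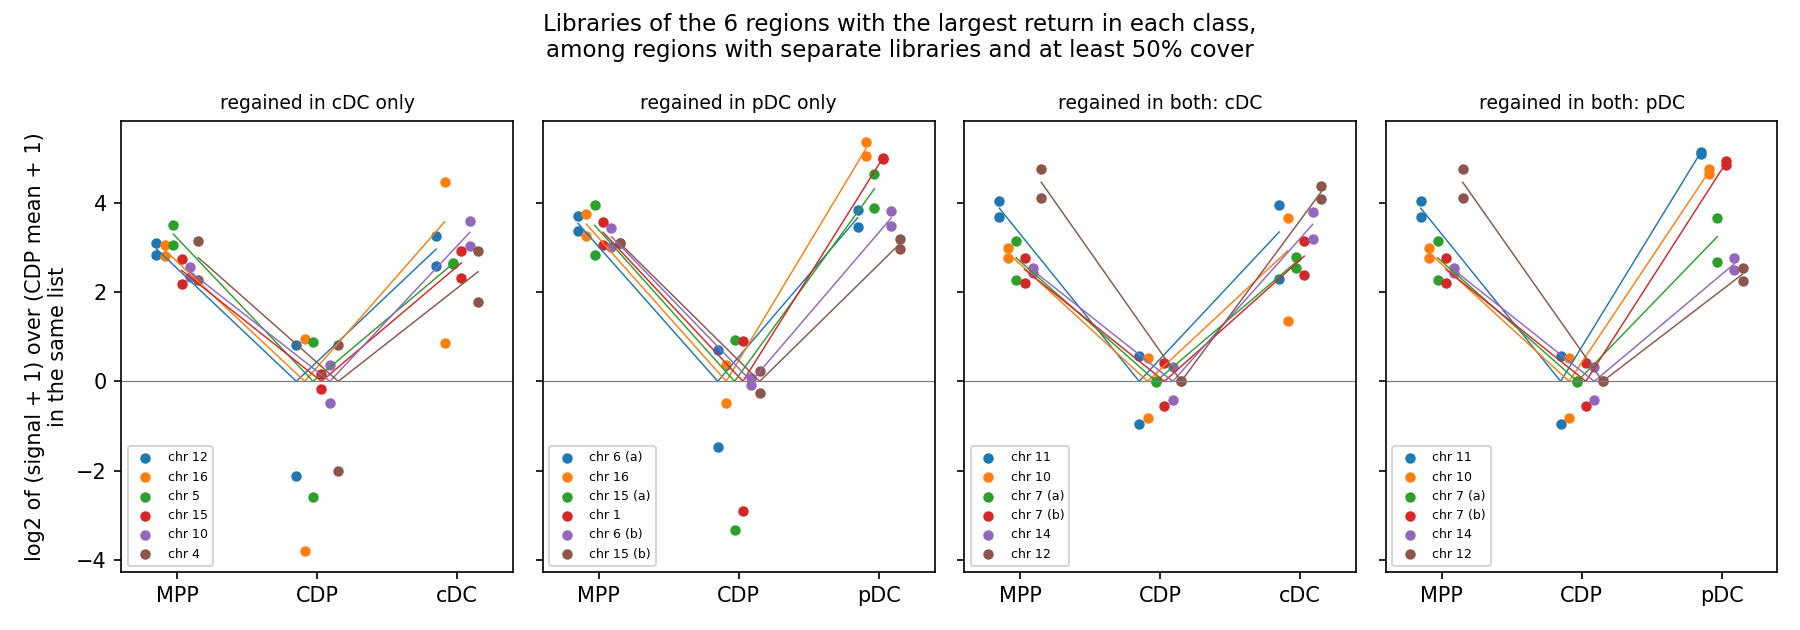
Signals of each library (points) and group means (lines) at the 6 regions of each class with the largest return. These are among the regions with separate libraries and a later region over at least 50% of them. Values are log2 of signal plus 1 over the CDP mean plus 1 of the same list, with the 3 stages on the horizontal axis. Within a panel each region has its own colour, labelled by its chromosome. The class of both has a panel for cDC and one for pDC. CDP points are those of the MPP and CDP list, the lowest of them are libraries with 0 to 2 signal units, and the chromosome 16 region of the cDC only class has 1 cDC library, at 137 signal units, level with its higher CDP point.

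The class of 205 regions regained in both mature cell types contained the deepest of the named losses. At chr12:86473401-86474150 both CDP libraries had 13 signal units, against 238 and 374 in MPP, or 21.9-fold lower. In cDC the signal was 610 and 501, against 26 and 31 in CDP, an 18.9-fold rise that ended near the level of MPP, with a joined log2 ratio of -0.22. In pDC it was 215 and 263, against 38 and 51 in CDP, a 5.27-fold rise that ended well below it, with a joined log2 ratio of -2.06. None of these steps had overlapping libraries. At chr14:8650451-8651800 the cDC rise was likewise the larger, with 2049 and 3130 in cDC against 184 and 268 in CDP (11.4-fold), and 1034 and 1245 in pDC against 132 and 235 in CDP (6.18-fold). This region had 135 and 226 signal units in CDP against 1054 and 973 in MPP, or 5.59-fold lower.

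The other 4 regions of this set rose further in pDC. At chr11:77579951-77580450 CDP had 6 and 19 signal units against 222 and 172 in MPP, or 14.7-fold lower. Signals in cDC were 84 and 269 against 12 and 21 in CDP, a 10.1-fold rise, and signals in pDC were 600 and 579 against 13 and 19 in CDP, a 34.7-fold rise. The cDC libraries thus differed from each other, whereas the pDC libraries were even. At chr7:132655201-132655650 the signal was 5.68-fold lower in CDP than in MPP, and then 6.97-fold higher in cDC, with 548 and 928 against 108 and 102 in CDP, and 29.5-fold higher in pDC, with 3954 and 4208 against 119 and 156 in CDP. At chr10:74779851-74780300 it was 7.35-fold lower in CDP, 7.56-fold higher in cDC and 25.8-fold higher in pDC, and its cDC libraries were uneven, at 72 and 357 signal units. At chr7:20108701-20109800 the ratios lay closer together, at 6.80-fold lower in CDP, 6.35-fold higher in cDC and 9.44-fold higher in pDC.

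The longest of the 1092 regions also belonged to this class. Over 6.85 kb, chr8:86260301-86267150 had 4814 and 3301 signal units in CDP against 10731 and 11427 in MPP, or 2.73-fold lower. In cDC it had 5958 and 15076 against 4705 and 3279 in CDP, a 2.63-fold rise in which the first-listed cDC library was only slightly above CDP. In pDC it had 20720 and 40245 against 5320 and 3598 in CDP, a 6.83-fold rise. The 2 regions next in length among the 153, chr1:69730401-69735100 and chr11:119251151-119255300, were 2.70-fold and 2.05-fold lower in CDP, 2.01-fold and 2.53-fold higher in cDC, and 3.79-fold and 2.72-fold higher in pDC.

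Whether the mark differed between cDC and pDC at the regions regained in both was tested with limits. The choice of regions did not use that contrast directly, but it set thresholds on the same cDC and pDC libraries. The authors had also called the regions of the cDC and pDC list as differing in these libraries. The adjusted p-values are therefore not independent evidence of a difference. A limma model was fitted to log2 of signal plus 1 over all 66319 regions of the cDC and pDC list, with Benjamini-Hochberg adjustment over the list. Of the 205 regions, 204 had a region of that list over them. Signals given from this list are those of the whole listed region, which can be much longer than the regained one. At an adjusted p under 0.05, 10 of the 204 (4.9%) were higher in cDC and 64 (31.4%) were higher in pDC, against 9.32% and 23.3% of the whole list. The median log2 difference of cDC minus pDC was -0.63 at the 204 regions and -0.22 over the list. With equal totals, which moved the list's median ratio of cDC to pDC by 0.46 on the log2 scale, 40 were higher in cDC and 52 in pDC, the median was -0.15, and over the list 18385 were higher in cDC and 14192 in pDC, against 6178 and 15427 as deposited. Without the first-listed pDC library 2 were higher in cDC and 36 in pDC, and without the second-listed pDC library 4 and 27, the lone pDC library being assumed to vary like the cDC libraries.

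**Figure D5:**
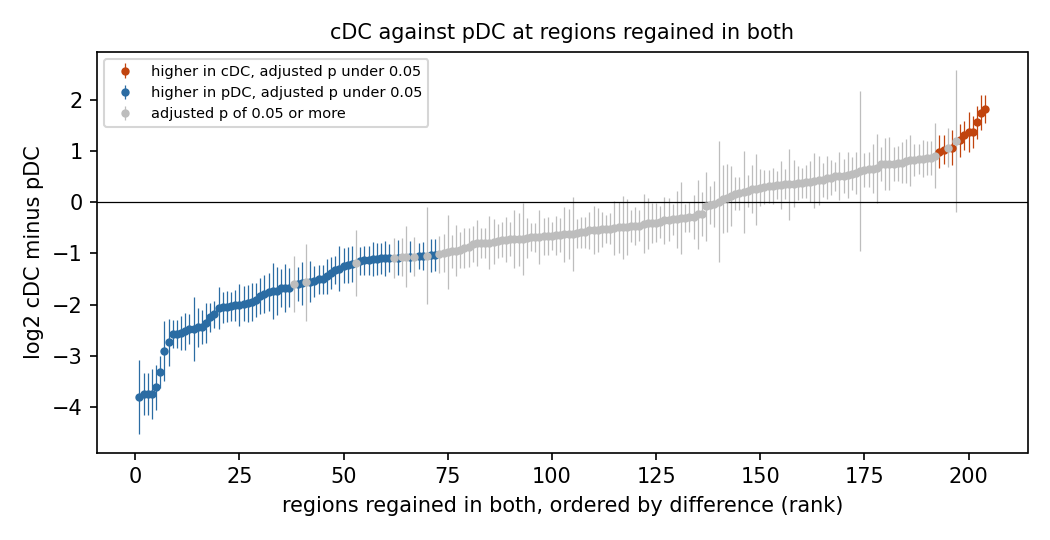
Log2 difference of cDC minus pDC (vertical axis, with its standard error) at the 204 regions regained in both that the cDC and pDC list covered, in order of the difference. The 10 regions called higher in cDC stand at the right end and the 64 called higher in pDC towards the left, and the grey points did not pass an adjusted p of 0.05 in limma.

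The largest of these differences were in favour of pDC. The regions in this paragraph were picked after their values were seen, as the 3 largest calls in each direction. At chr11:106482651-106485250 signals in cDC were 1670 and 4193 against 36763 and 34243 in pDC, a log2 difference of -3.74 ± 0.41 (SE, limma adjusted p = 0.000356). These signals were summed over the far longer listed region chr11:106476551-106489350. Both cDC libraries lay far below both pDC libraries there, although cDC was itself 2.52-fold above CDP. At chr2:172802751-172803200 cDC had 164 and 518 against 3515 and 4372 in pDC, and at chr6:121175951-121176650 cDC had 142 and 1018 against 5513 and 5200 in pDC, with limma adjusted p-values of 0.000732 and 0.00422. Higher in cDC, chr3:85993101-85993450 had 3047 and 3305 signal units in cDC against 891 and 907 in pDC, a log2 difference of 1.82 ± 0.27 (SE, limma adjusted p = 0.00136). Its listed region was chr3:85990901-85994500. The region chr4:82969501-82970150 had cDC signals of 926 and 947 against 234 and 328 in pDC (limma adjusted p = 0.00484), and did not pass without the first-listed pDC library. At chr12:86915801-86916900 cDC had 1119 and 1420 against 466 and 390 in pDC (limma adjusted p = 0.00588), and this call was lost without the second-listed pDC library.

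Among the 9 regions named above for this class, the same test gave calls in both directions. At chr7:132655201-132655650 the log2 difference of cDC minus pDC was -2.55 ± 0.33 (SE, limma adjusted p = 0.000704), with 618 and 1094 signal units in cDC against 4797 and 4847 in pDC. At chr10:74779851-74780300 it was -2.48 ± 0.62 (SE, limma adjusted p = 0.0152). These 2 calls held without any one library. At chr12:86473401-86474150 the difference was in favour of cDC, at 1.37 ± 0.39 (SE, limma adjusted p = 0.0244), with 458 and 432 in cDC against 151 and 194 in pDC, and at 1.19 to 1.55 it did not pass when the first-listed cDC library or either pDC library was left out. The limma adjusted p was 0.0379 at chr11:77579951-77580450, 0.0249 at chr8:86260301-86267150 and 0.0253 at chr1:69730401-69735100, all 3 higher in pDC, and each of these calls was lost when either pDC library was left out. The first of them was also lost with equal totals, and the first and second without the first-listed cDC library. At chr14:8650451-8651800, chr7:20108701-20109800 and chr11:119251151-119255300 the limma adjusted p was 0.0698, 0.117 and 0.50.

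Regions regained in one mature cell type were often not covered by the list of the other. Of the 210 regions regained in cDC only, 129 had no region of the CDP and pDC list over them, 51 were higher in pDC than in CDP by less than 2-fold, 13 were equal or lower by less than 2-fold and 17 were at least 2-fold lower. Of the 677 regions regained in pDC only, 305 lay outside all regions of the CDP and cDC list, 179 were higher in cDC by less than 2-fold, 95 were equal or lower by less than 2-fold and 98 were at least 2-fold lower in cDC than in CDP. In the cDC and pDC list the median log2 difference of cDC minus pDC was 1.51 over the 183 covered regions of the cDC only class and -2.19 over all 677 of the pDC only class. The choice of regions bears on these signs, and no test is given for them.

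The median length of the regained regions was 700 bp. This was also the median of all regions not regained, while those of them that a later region covered had a median of 1150 bp. Of the regained regions, 377 of the 1092 were at least 1 kb long. The share of lost regions that were regained varied little with length, from 4.59% to 6.76% in cDC and from 10.4% to 14.3% in pDC across 4 length ranges. Short regions were seldom covered by a later list, however. Of the 2019 lost regions under 500 bp, 17.4% were covered by the cDC list and 15.1% by the pDC list, and of these 33.5% and 69.1% were regained. Of the 589 lost regions of at least 2 kb, 89.6% and 87.1% were covered, and 6.82% and 16.4% of these were regained. Among the 397 regions lost by at least 10-fold, the later lists covered 12 in cDC and 27 in pDC, of which 7 and 24 were regained.

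A later region seldom had the bounds of the lost one. Bounds were identical at 5 of the 415 regions in the cDC list and at 6 of the 882 in the pDC list. The later region covered at least 50% of the lost one at 356 of 415 regions in cDC and at 750 of 882 in pDC. At those regions the CDP signal per kb, after a constant factor between lists, was within 2-fold of that in the MPP list in 93.8% for cDC and in 92.4% for pDC. Neighbouring regions of the MPP and CDP list could also change the loss. Joined with every other region of that list less than 500 bp away, 970 of the 1092 (88.8%) remained at least 2-fold lower in CDP, against 91.5% of the 5998 regions not regained and 86.6% of the 2527 of these with a later region over them, and 19 were higher in CDP as joined stretches.

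The regions were found on all 19 autosomes, but were not evenly spread along them. Chromosome 11 held the most, with 89, and chromosome 18 the fewest, with 31. As a share of the lost regions of a chromosome they ran from 11.5% on chromosome 10 to 20.1% on chromosome 4. Joining regions less than 10 kb apart left 995 stretches, of which 919 held a single region, 62 held 2 and the other 14 held 3 to 6.

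All stretches described below lay at similar positions of their chromosomes, starting at 86241201 and 86201001 on chromosome 8, 85989701 on chromosome 15 and 85976001 on chromosome 3. The reason for this was not tested, so they should not be read as unrelated clusters. The stretch with the most regions, 6, lay on chromosome 8 from 86241201 to 86267150 and contains the longest region named above. Summed over its regions, the CDP libraries had 5239 and 3924 signal units against 13910 and 13869 in MPP, or 3.03-fold lower. Of its regions 4 were regained in pDC only and 2 in both, with ratios of pDC to CDP of 2.87 to 41.8. In cDC they went different ways. The 2 regained there were 2.39-fold and 2.63-fold higher in cDC than in CDP, chr8:86248401-86248800 was 1.35-fold higher, chr8:86241201-86241800 was 1.91-fold lower, and the others had no cDC region over them. The 41.8-fold rise, at chr8:86256501-86258700, was that of a pDC region over 11.4% of it, with 62 and 103 signal units in pDC against 0 and 2 in CDP.

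Another stretch on the same chromosome, from 86201001 to 86210600, held 4 regions that were 2.16 to 3.27-fold lower in CDP than in MPP. In pDC they were 2.20 to 6.49-fold higher than in CDP, and 2 of them shared one pDC region. In cDC a single one was regained, chr8:86209451-86210600, with 139 and 469 signal units in cDC against 122 and 162 in CDP, so the lower cDC library overlapped with CDP. Of the remaining ones, 2 were lower in cDC than in CDP, by 2.00-fold and 2.38-fold, and the cDC regions over them left most of each uncovered.

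On chromosome 15, from 85989701 to 86005550, 5 regions together had 1049 and 1525 signal units in CDP against 4455 and 3166 in MPP, or 2.96-fold lower. The listed directions in cDC and pDC differed at 3 of them. In pDC the 5 were at least 2.38-fold higher than in CDP, and the 3 nearest the end of the stretch shared a pDC region with 16603 and 20070 signal units in pDC against 706 and 1128 in CDP. In cDC 2 of these were higher than in CDP, by 2.07-fold and 2.60-fold, and the other 3 regions of the stretch were 2.71-fold, 2.97-fold and 5.19-fold lower. The cDC regions behind these 3 falls covered only 8.82%, 27.1% and 38.5% of them. At chr15:85989701-85991400 the cDC and pDC regions did not overlap each other, so the 2 directions came from different DNA. The stretch also held 3 lost regions that were not regained.

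On chromosome 3, from 85976001 to 85993450, 4 regions had 159 and 164 signal units in CDP against 1151 and 493 in MPP, or 5.06-fold lower. In cDC 3 of them were higher than in CDP, chr3:85984801-85985500 by 4.74-fold and the other 2 by 13.0-fold under a shared cDC region, which had 3060 and 3396 signal units in cDC against 159 and 335 in CDP. The first, chr3:85976001-85976400, was 1.82-fold lower in cDC and 3.54-fold higher in pDC than in CDP. Its cDC region covered only 12.5% of it, and the libraries overlapped there, with 12 and 94 in cDC against 77 and 118 in CDP. Of the 3 regained in cDC, the pDC list covered one, chr3:85993101-85993450, which was 6.90-fold higher in pDC than in CDP.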

How the data were processed

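The authors' deposited lists give, per region, whole-number signals of the 2 libraries of each cell type, scaled per library and list, and −log10 of a p-value. This unit is not a read count, and neither depth nor scaling is stated. Per the submitters' processing notes, reads were aligned with BWA 0.6.1 and the build is mm9. THOR, which calls differential peaks from replicates, is named in the title of the series. Which signals belong to which cell type was read from the order in the list names and checked where 2 lists share a region's exact bounds. There, 10 pairs of columns taken to be the same library had log2 ratios with an SD of 0.079 or less (factor 0.878 to 1.238), and the other 86 pairs one of 0.613 or more. MPP could be placed only by the list name. The columns have no replicate numbers, so libraries are named by their order.

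Group means plus 1 gave the ratios, and a region was followed into the row of a later list with most overlapping bp. The limma test (limma-trend, 2 libraries against 2) was run on log2(signal + 1) over the whole cDC and pDC list. Its code was tried on simulated data with equal noise in every library and no offset between libraries. That trial does not show how the test behaves with libraries as uneven as those of cDC. The smallest two-sided p of an exact permutation test with 2 libraries per group is 0.333, and steps that the choice of regions used were not tested.

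In each class the text names, among regions with separate libraries in every step used and a later row covering at least 50%, the 6 with the largest return (smallest of the step ratios) and the 3 longest, and over all regions the 3 stretches with most regions after joining at 10 kb. A stretch tied in number with the third is given too. The members and lists were chosen with earlier results of these data known. Alternatives were pseudocounts, thresholds, overlap, scaling, length, p-values, sex chromosomes, libraries left out and steps sharing no CDP library. Inputs (4) and RNA samples (4) were not used here. Python 3.11.15, numpy 2.4.6, pandas 2.3.3, matplotlib 3.10.9, R 4.3.3 and limma 3.58.1 were used.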

Additional observations from a re-analysis of the deposited data

Results flagged for a closer look

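A small number of regions moved in opposite directions in the mature cell types, with every library of one above and every library of the other below both CDP libraries, at least 2-fold in each direction, and with later regions covering at least 50% of the lost one. Among the 201 regions regained in cDC with this cover in both lists, 2 did so (0.995%), against 319 of 2348 (13.6%) of all autosomal regions of the MPP and CDP list that were at least 2-fold higher in cDC with this cover. At chr10:44350101-44351100 the cDC libraries had 962 and 1328 signal units against 467 and 568 in CDP, while signals in pDC were 22 and 58 against 173 and 229 in CDP. At chr17:78599101-78600800 cDC had 1998 and 2015 against 966 and 781 in CDP, and pDC had 176 and 313 against 665 and 566 in CDP. Among the 346 regions regained in pDC with this cover, 29 moved in opposite directions (8.38%), against 776 of 6037 (12.9%) over the list. At chr5:24478851-24480250 pDC had 15178 and 16926 signal units against 981 and 1090 in CDP, and cDC had 90 and 181 against 369 and 317 in CDP. At chr12:83240101-83241300 cDC had 4 and 16 against 297 and 217 in CDP, and pDC had 571 and 788 against 328 and 261 in CDP. These examples were picked after their values were seen. The difference between the steps was not tested, and both steps share the CDP libraries.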

How the results depend on the processing

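No paired analysis was possible because the columns carry no replicate numbers. Counts are given in the order cDC, pDC and both, against 415, 882 and 205. A ratio of at least 1.5 in both steps gave 1383, 2296 and 750, and one of at least 3 gave 112, 273 and 38. Asking that the lost and the later region each cover 50% of the other gave 257, 475 and 101, and regions of at least 500 bp gave 255, 580 and 121. An MPP mean of at least 200 moved the cDC count to 273, and equal autosomal totals moved the pDC count to 568. Leaving out each library in turn gave 302 to 793 in cDC, 699 to 1421 in pDC and 142 to 401 in both, the highest without the second-listed CDP library. In the limma test at regions regained in both, leaving out each library gave 2 to 14 higher in cDC and 27 to 84 higher in pDC, and equal totals gave 40 higher in cDC. The log2 difference of cDC minus pDC at chr11:119251151-119255300 changed sign, to 0.09 with equal totals and to 0.21 when the first-listed cDC library was left out, and was -1.0 when the second-listed one was. The cause of these shifts was not tested. No direction of a step at the 27 named regions changed in 441 recomputed values. These regions were chosen for separate libraries, so leaving out a library or changing the pseudocount could not reverse a direction. Of the alternatives used there, only equal totals could have done so. The median joined log2 ratios to MPP were -0.11 to 0.04 for cDC, which changes their sign, and 0.18 to 0.37 for pDC. Read depth is unknown, so counting error cannot be given, and ratios at regions with a CDP library near 0 move with that library. Separate libraries together with 50% cover, an alternative chosen after seeing the data, gave 321, 726 and 153.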
